A study of Mus musculus with 28 samples.

Results

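Brain metastases of a lung cancer line were sorted into a PDGFRb fraction, meant to hold mural cells, and a CD31 fraction, meant to hold endothelial cells, and the RNA of these fractions was compared. The comparison used 9 of the 28 RNA-seq libraries in the series, namely the 4 whose titles join lung with PDGFRb and the 5 whose titles join lung with CD31. The PDGFRb libraries came from mice 51435, 54957, 55169-70 and 56195-56520, and the CD31 libraries from mice 51435, 51697, 54957, 55169-70 and 56195-56520. Values per library are given in these orders. Per the labels' protocols, the mice carried PDGFRβ-CreERT2 and Rosa-tdTomato and received tamoxifen, so that cells with an active Pdgfrb promoter became red. Metastases (BrM) grew from Sv2T3-BrM1 cells, a brain-homing lung cancer line, injected into the heart. Cells positive for CD45, CD11B or EPCAM were gated out, and CD31-positive or tdTomato-positive cells were kept. Breast BrM (PyMT-BrM3 cells, 4 PDGFRb and 5 CD31 libraries) and non-tumor brain (5 and 5) of the same reporter background served only as further references. Lung BrM is modelled by 1 cancer line here, the reporter follows the Cre driver and not a cell type, and 2 labels (55169-70 and 56195-56520) join 2 mouse numbers and count as a single replicate each. Age and sex are not given in the sources used here.

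Mural cells, which are the pericytes of capillaries and the smooth muscle cells of larger vessels, wrap brain endothelium and depend on PDGF-B from endothelial cells, which they sense through the receptor PDGFRβ. Brain endothelial cells form the blood-brain barrier with tight junctions and a large set of transporters, and in tumors they can turn to sprouting. Perivascular fibroblasts also use Pdgfrb and make collagen around vessels. Cancer cells of epithelial origin carry keratins and E-cadherin. A cancer cell with little EPCAM on its surface would pass a gate set against EPCAM, but only cells with CD31 or tdTomato signal were kept. How epithelial RNA came into the sorts was not tested. In bulk RNA, fewer cells of a type and less RNA per cell cannot be told apart, which applies to every level below.

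The 4 PDGFRb libraries held 13.4 M to 20.4 M counts and the 5 CD31 libraries 12.9 M to 18.1 M. Between 17871 and 19473 genes were detected in PDGFRb libraries and between 12601 and 19464 in CD31 libraries, with the fewest in CD31 mouse 56195-56520. A gene with 3 counts stood at 0.154 to 0.235 CPM (counts scaled to a fixed library size, with TMM-scaled totals), and mitochondrial genes took 0.998% to 3% of the counts. The titles and the cell type labels of the libraries of non-tumor mouse 54135 name opposite sorts, and these libraries were placed by title. So placed, endothelial core genes summed to 862 to 1440 CPM in the 5 non-tumor PDGFRb libraries and to 31330 to 32896 CPM in the 5 non-tumor CD31 libraries.

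The genes behind the gates showed a clean endothelial separation and a weak mural one. Pecam1, which encodes CD31, was at 0.0512, 0.151, 0.441 and 0.117 CPM in the PDGFRb libraries, against 834, 592, 1124, 1288 and 876 CPM in the CD31 libraries. The groups lay far apart, with a log2 difference (PDGFRb minus CD31) of -12.22 ± 0.958 (SE; edgeR adjusted p = 1.3e-09), which was -13.08 without the PDGFRb library of mouse 55169-70. Pdgfrb was at 466, 36.9, 36 and 42.2 CPM in the PDGFRb libraries, against 4.64, 14.1, 7.37, 0 and 0.0621 CPM in the CD31 libraries. Mouse 51435 was an order of magnitude above the rest, while the other 3 PDGFRb libraries were within a few-fold of the highest CD31 library. The log2 difference was 4.80 ± 1.07 (edgeR adjusted p = 0.0021), with 2.88 without PDGFRb mouse 51435 and 5.60 without CD31 mouse 51697. In non-tumor brain the PDGFRb sort held 1156 ± 304 CPM of Pdgfrb (SD, n = 5). All 4 lung PDGFRb libraries were below that mean, 3 of them far below it, so the fraction is called the PDGFRb sort here and not mural cells.

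Krt8, an epithelial keratin that is low in both sorts from non-tumor brain, was high in the PDGFRb sort of lung BrM. It stood at 2494, 3264, 2708 and 4033 CPM in the PDGFRb libraries, against 825, 404, 177, 37.9 and 95.2 CPM in the CD31 libraries. The 4 PDGFRb values were close together and above all CD31 values, which spread over a wide range (log2 difference 3.34 ± 0.902, edgeR adjusted p = 0.0096, and 4.13 without CD31 mouse 51435). It did not pass without the labels of 2 mouse numbers (2.48, edgeR adjusted p = 0.23). Epcam, the surface molecule used in the gate, stood at 5.94, 7.6, 31.9 and 16.9 CPM in the PDGFRb libraries and at 0.854, 1.81, 39.8, 0 and 0 CPM in the CD31 libraries. It did not pass the test (log2 difference 0.88, edgeR adjusted p = 0.71), but did without CD31 mouse 54957 (4.58, edgeR adjusted p = 0.032). The leukocyte gene Ptprc, which encodes CD45, reached 15.3 CPM in PDGFRb mouse 55169-70 and 3.15 CPM in CD31 mouse 54957, and stayed under 2 CPM in the other 7 libraries. Itgam, which encodes CD11B, had counts in those same 2 libraries only, at 3.09 and 3.22 CPM. Neither passed the test (edgeR adjusted p = 0.26 and 0.95).

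**Figure D1:**
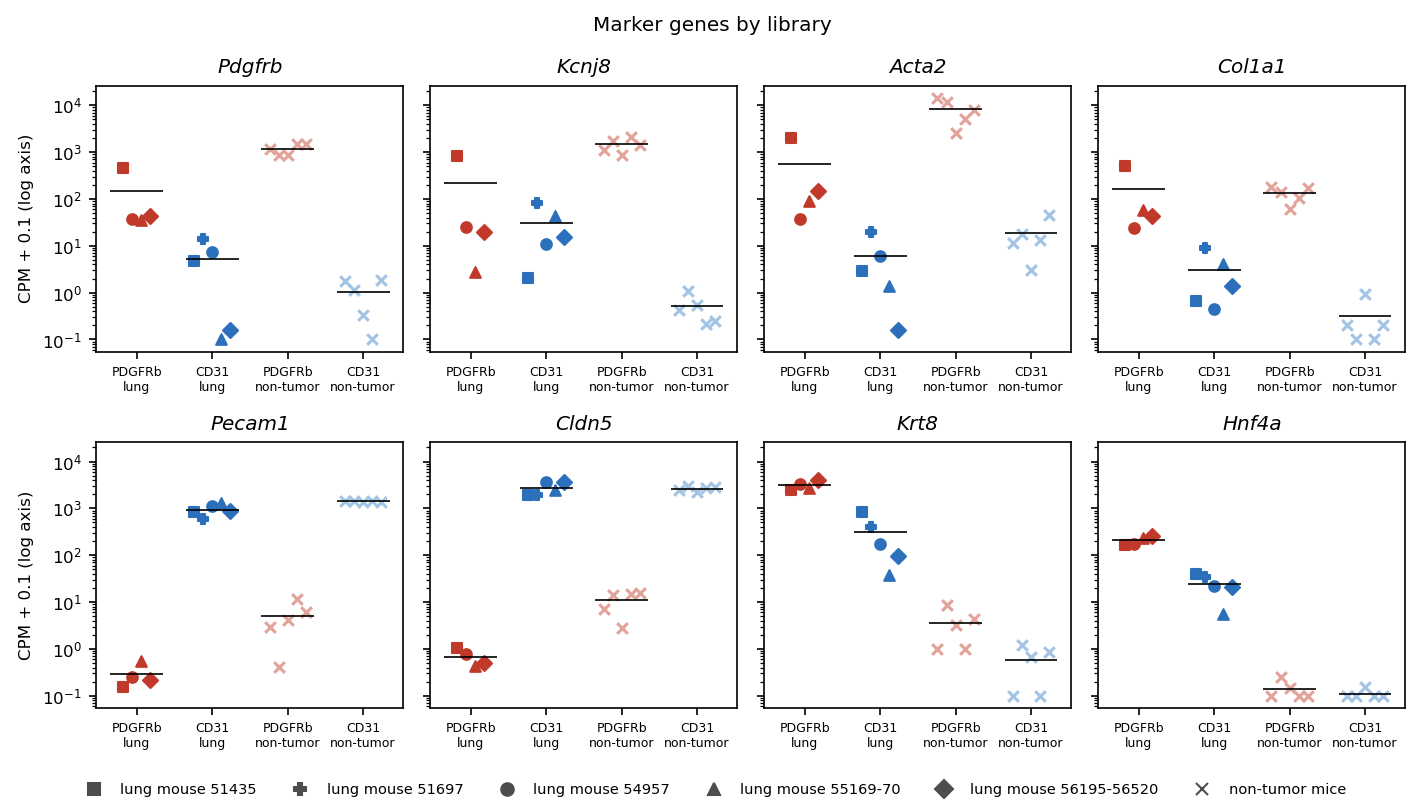
Levels of 8 marker genes (CPM + 0.1, log axis) in each library of the PDGFRb and CD31 sorts of lung BrM and non-tumor brain; symbols mark the lung mice and black lines the group means. Pdgfrb is at 466 CPM in lung mouse 51435 and at 36 to 42.2 CPM in the other 3, while Krt8 is at 2494 to 4033 CPM in all 4 lung PDGFRb libraries.

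Over all genes, the PDGFRb sort of lung BrM had higher levels of most tested smooth muscle contractile, perivascular fibroblast and gut and liver genes on the lists, and lower levels of all 22 endothelial core genes. The PDGFRb sort exceeded the CD31 sort in 1899 (10.2%) of the 18548 genes that entered the test and was below it in 1737 (9.36%) (adjusted p under 0.05 by the quasi-likelihood test of edgeR with Benjamini-Hochberg adjustment), and the median log2 difference was 0.19. Counts of list members below are to be read against these shares. Lists and members were chosen with earlier results of these data known, so an excess over the shares is no independent test of a list. With the mouse as a replicate block, 759 were higher and 1115 lower. The date in the table's column names is shared by both sorts of a mouse, and with date as a covariate 1537 were higher and 1546 lower. Without the labels of 2 mouse numbers, which leaves 2 PDGFRb libraries, 483 were higher and 696 lower.

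The 10 rises named by the rule, which takes only called genes without overlap between the sorts, mixed mural, fibroblast, epithelial and other genes. The mural ones were Acta2 (smooth muscle actin), Rgs5 (which dampens G protein signalling in pericytes) and Myl9 (a myosin light chain). Sod3 (extracellular superoxide dismutase) and Cryab (a small heat shock protein) were named as well, and which cells they came from was not tested. The collagen chains Col1a1 and Col3a1 are described with the perivascular fibroblast genes. Myl9 stood at 1217, 84.8, 125 and 107 CPM in PDGFRb libraries, against 9.88, 9.65, 9.09, 5.32 and 0 CPM in CD31 libraries (log2 difference 5.82 ± 0.892, and 3.96 without PDGFRb mouse 51435). Sod3 stood at 766, 123, 138 and 200 CPM, against 16.2, 7.3, 3.72, 0.961 and 3.72 CPM (5.59, with 4.59 without PDGFRb mouse 51435 and 6.29 without CD31 mouse 51435). In both, mouse 51435 was several-fold above the other PDGFRb libraries. Cryab was at 239, 20.6, 40.9 and 85.8 CPM in the PDGFRb libraries and at no more than 7.76 CPM in the CD31 libraries (5.28, with 4.31 without PDGFRb mouse 51435 and 6.40 without CD31 mouse 56195-56520). The epithelial ones were Alb, Apoa1 and Akr1c19, which are described with the gut and liver genes.

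The 10 falls named by the rule were genes of endothelium. The rule asks for a mean log2 CPM of at least 3 over the lung libraries and for no overlap between the sorts. Clec14a, an endothelial lectin of angiogenesis, averaged 0.0651 ± 0.0627 CPM in the PDGFRb sort and 374 ± 154 CPM in the CD31 sort (SD, n = 4 and 5; log2 difference -12.45, and -13.13 without PDGFRb mouse 54957). Slc38a5, a glutamine transporter of brain endothelium, averaged 0.172 ± 0.137 and 946 ± 476 CPM in the same order (-12.35). Sox7, an endothelial transcription factor, had 3 counts over the 4 PDGFRb libraries and 18077 over the 5 CD31 libraries, a ratio of 5328 (95% exact counting interval 1823 to 25840; fitted -12.13, and -13.23 without PDGFRb mouse 54957). The venule gene Ackr1, a chemokine-binding receptor, had a log2 difference of -12.11 (-13.08 without PDGFRb mouse 54957), and Prnd one of -11.12 (-13.22 without the same library). Ly6c1, whose near copies make its level uncertain, was at 0.0753 to 2.82 CPM in PDGFRb libraries and at 1384 to 2733 CPM in CD31 libraries. The log2 differences were -10.80 for Ly6c1, -9.97 for Ushbp1 and -9.85 for Icam2, an adhesion molecule, and -12.09, -10.88 and -10.55 without PDGFRb mouse 51435. None of these genes exceeded 2.82 CPM in a PDGFRb library.

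Pericyte genes were higher in the PDGFRb sort, but the size of the difference rested largely on mouse 51435. Of the 24 pericyte genes, all tested, 18 were higher and 1 lower, with a median log2 difference of 5.46. Without the PDGFRb library of mouse 51435 the counts were 13 and 3 and the median 2.95, and with the replicate block they were 13 and 1. The summed level of the list was 9893, 459, 332 and 486 CPM in the PDGFRb libraries, against 191, 417, 294, 336 and 175 CPM in the CD31 libraries. Mouse 51435 was more than an order of magnitude above the rest, and of the other 3 PDGFRb libraries 1 lay inside the CD31 range and 2 just above it. These sums were 33.8%, 1.57%, 1.13% and 1.66% of the mean of the PDGFRb sort from non-tumor brain, 29294 CPM.

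Single pericyte genes followed that pattern with exceptions. Vtn, which encodes vitronectin of the pericyte matrix, was at 3045, 30, 83.6 and 64.3 CPM in PDGFRb libraries, against 0.305, 1.49, 1.14, 0 and 0 CPM in CD31 libraries (log2 difference 10.47 ± 1.32, with 6.72 without PDGFRb mouse 51435 and 11.16 without CD31 mouse 51697). Rgs5 was at 1334, 119, 25.3 and 111 CPM, against 0.488, 18, 6.65, 2.38 and 0 CPM (6.18, with 3.96 and 7.39 without the same libraries). For both genes the sorts did not overlap, which the rule had asked of Rgs5, and with limma-voom Vtn was not called (9.64, adjusted p = 0.18). Atp13a5, a pericyte transport ATPase, stood at 454, 3.61, 7.23 and 2.52 CPM in PDGFRb libraries and at no more than 0.572 CPM in CD31 libraries (9.57, with 4.86 without PDGFRb mouse 51435 and 11.05 without CD31 mouse 54957). Cspg4, which encodes NG2, stood at 496, 44.6, 23.1 and 45.3 CPM, against 9.09, 0.628, 1.07, 0 and 0 CPM (6.13, with 4.11 without PDGFRb and 8.53 without CD31 mouse 51435). Casq2, a calcium store protein, was at 128, 0.226, 0.386 and 1.11 CPM in PDGFRb libraries and without counts in the CD31 libraries, so that it was at least 952-fold higher against 3 counts over the group (fitted log2 difference 12.15, and 6.36 without PDGFRb mouse 51435).

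The potassium channel pair Kcnj8 and Abcc9, which marks brain pericytes, did not separate the sorts. Kcnj8, the pore subunit, was at 833, 25.1, 2.65 and 19.3 CPM in PDGFRb libraries, against 1.95, 80.2, 10.9, 42.8 and 15.1 CPM in CD31 libraries. Outside mouse 51435, the CD31 libraries reached higher values than the PDGFRb ones. Its call (log2 difference 2.87 ± 0.969, edgeR adjusted p = 0.037) was lost without PDGFRb mouse 51435 (-0.94, adjusted p = 0.42), without CD31 mice 51435 (2.56, 0.066), 54957 (2.65, 0.08), 55169-70 (3.03, 0.055) or 56195-56520 (2.70, 0.082), and with the replicate block (0.87, edgeR adjusted p = 0.77), and the difference was 3.63 without CD31 mouse 51697. Abcc9, the regulatory subunit, stood at 305, 9.41, 3.2 and 18.6 CPM in PDGFRb libraries, against 9.03, 111, 16.2, 52.2 and 10.6 CPM in CD31 libraries. It did not pass the test (1.08, edgeR adjusted p = 0.38), and without PDGFRb mouse 51435 it was lower in the PDGFRb sort (-1.93, edgeR adjusted p = 0.044). The CD31 sort from non-tumor brain held 0.408 ± 0.355 CPM of Kcnj8 and 0.593 ± 0.355 CPM of Abcc9 (SD, n = 5 each).

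Smooth muscle contractile genes were higher in the PDGFRb sort in 14 of 20 cases, all tested, and lower in 1, with a median log2 difference of 3.54. Without PDGFRb mouse 51435 the counts were 14 and 3 and the median 2.28. Their summed level was 8143, 2304, 1805 and 2094 CPM in PDGFRb libraries, against 1398, 1222, 960, 1082 and 1184 CPM in CD31 libraries. All 4 PDGFRb libraries lay above the CD31 range, at 30.2%, 8.54%, 6.69% and 7.76% of the mean of the non-tumor PDGFRb sort. Acta2 was at 1963, 37.9, 88.3 and 146 CPM, against 2.87, 19.3, 6.08, 1.3 and 0.0621 CPM (6.57 ± 1.13, with 3.95 without PDGFRb mouse 51435 and 7.77 without CD31 mouse 51697). Tagln, which encodes transgelin of the actin cytoskeleton, was at 777, 13.8, 48.7 and 55.5 CPM, against 1.46, 0.942, 1.29, 1.75 and 25.9 CPM. The CD31 library of mouse 56195-56520 overlapped the PDGFRb range for Tagln (5.15, with 2.65 without PDGFRb mouse 51435 and 7.34 without that CD31 library). With limma-voom, neither Acta2 (6.63, adjusted p = 0.68) nor Tagln (5.12, adjusted p = 0.54) nor Myl9 (6.31, adjusted p = 0.58) was called. Myh11, the smooth muscle myosin heavy chain, had 3082 counts over the PDGFRb libraries and 2 over the CD31 libraries, both in mouse 54957, a ratio of 1743 (95% exact counting interval 482 to 14396). Its PDGFRb levels were 132, 1.58, 15.9 and 11.7 CPM, and its fitted log2 difference of 10.24 was 8.19 without PDGFRb mouse 51435 and 12.47 without CD31 mouse 54957. Cnn1, which encodes calponin, had no counts in CD31 libraries and was at least 397-fold higher in the PDGFRb sort, where it stood at 42.6, 2.41, 5.46 and 5.27 CPM (fitted 10.93, and 9.26 without PDGFRb mouse 51435).

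**Figure D2:**
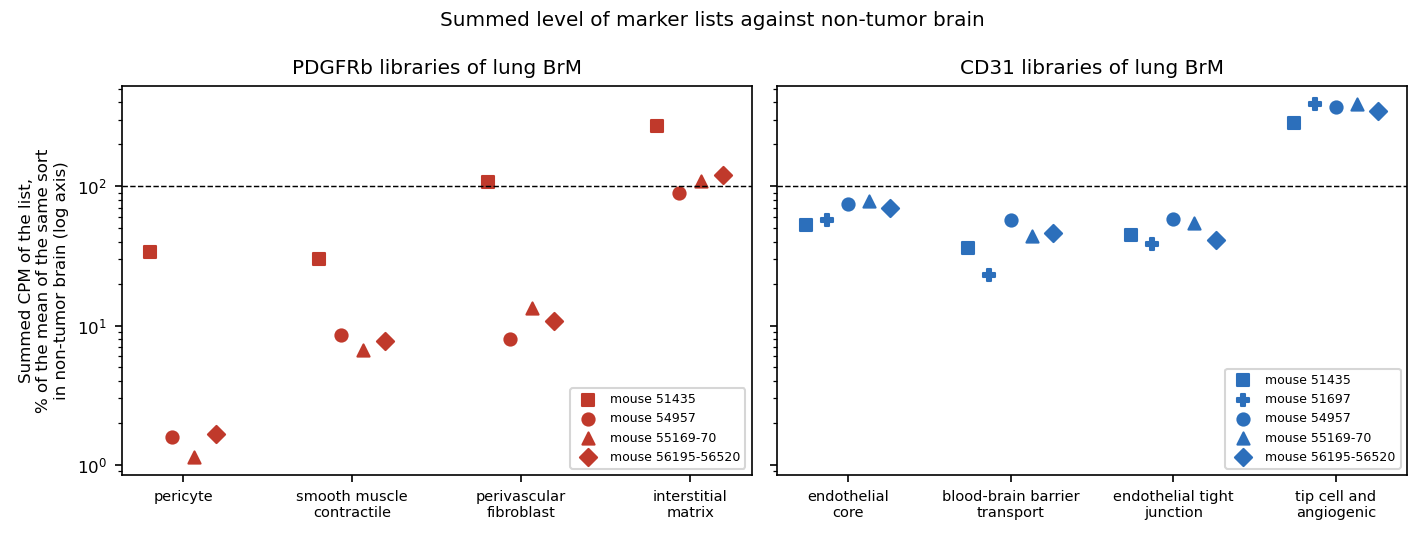
Summed CPM of marker lists in each lung BrM library as a percentage of the mean of the same sort in non-tumor brain (log axis, dashed line at 100%), for PDGFRb libraries (left) and CD31 libraries (right). The pericyte sum is 33.8% in mouse 51435 and 1.13% to 1.66% in the other PDGFRb libraries, while the endothelial core sum is 52.5% to 78% in the CD31 libraries.

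Most perivascular fibroblast genes were higher in the PDGFRb sort. Of 22 perivascular fibroblast genes, 21 were tested, of which 16 were higher and 0 lower (median log2 difference 5.10, or 5.04 with genes without counts at their bound). Without PDGFRb mouse 51435, 13 were higher and the median was 3.62. DESeq2 and limma-voom called 0 lower as well, and 19 of the 21 had an unadjusted edgeR p under 0.05. Their summed level was 4730, 352, 584 and 468 CPM in PDGFRb libraries, against 221, 293, 267, 425 and 300 CPM in CD31 libraries. Mouse 51435 stood at 108% of the mean of the non-tumor PDGFRb sort and the other 3 at 8.04% to 13.4%, of which 1 lay inside the CD31 range. Col1a1 was at 516, 23.7, 57.3 and 44.1 CPM, against 0.549, 8.87, 0.358, 4.02 and 1.3 CPM (5.74 ± 1.06, with 3.80 without PDGFRb mouse 51435 and 6.66 without CD31 mouse 51697). Col3a1 was at 729, 28.9, 68.5 and 60.1 CPM, against 0.305, 6.44, 0.143, 1.07 and 27.2 CPM (4.97, with 2.90 without PDGFRb mouse 51435 and 6.82 without CD31 mouse 56195-56520), and was not called with the lung libraries only (4.77, edgeR adjusted p = 0.052). Neither collagen chain overlapped between the sorts, as the rule that named them requires. For both, mouse 51435 was far above the other PDGFRb libraries. The small leucine-rich proteoglycan Lum was at 176, 7.53, 34.3 and 16 CPM, against 0, 0.0785, 0, 0 and 2.79 CPM (6.63, with 11.26 without CD31 mouse 56195-56520 and 5.04 without PDGFRb mouse 51435). Its relative Dcn was at 486, 29.3, 62.3 and 23.1 CPM, against 0, 20.2, 0.644, 3.73 and 17.3 CPM. The lowest PDGFRb value of Dcn was close to the highest CD31 value, and its call (4.17) was lost without PDGFRb mouse 51435 (2.20, edgeR adjusted p = 0.1, and 4.79 without CD31 mouse 51697).

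Of 27 interstitial matrix genes, all tested, 15 were higher in the PDGFRb sort and 3 lower (median log2 difference 2.99), and without PDGFRb mouse 51435 the counts were 8 and 3 and the median 1.16. The list sum ran the other way outside mouse 51435, at 18250, 6006, 7335 and 8109 CPM in PDGFRb libraries, against 14188, 14044, 17948, 15708 and 16275 CPM in CD31 libraries. Most called members were thus higher in the PDGFRb sort, while the summed level was lower in 3 of its 4 libraries than in every CD31 library. Postn, which encodes periostin, was at 145, 8.21, 5.02 and 18 CPM in PDGFRb libraries and at no more than 0.396 CPM in CD31 libraries (7.65, and 5.58 without PDGFRb mouse 51435). Loxl1, an enzyme of elastic fibre assembly, had 913 counts over the PDGFRb and 1 over the CD31 libraries, a ratio of 1032 (95% exact counting interval 185 to 40825). Of the PDGFRb libraries, mouse 51435 stood highest at 38.8 CPM (fitted 9.20, with 7.26 without it and 10.74 without CD31 mouse 51697).

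Endothelial core genes were lower in the PDGFRb sort. All 22 endothelial core genes were tested, and all 22 were lower (median log2 difference -8.59, and -10.42 without PDGFRb mouse 51435). Their summed level was 885, 165, 115 and 140 CPM in PDGFRb libraries, against 16989, 18543, 24073, 25218 and 22623 CPM in CD31 libraries. The sum in the PDGFRb library of mouse 51435 was several times that in the other 3, although Pecam1 was lowest there. It lay within the range of the PDGFRb sort from non-tumor brain, 862 to 1440 CPM. The CD31 sums were 52.5% to 78% of the mean of the CD31 sort from non-tumor brain. Cldn5, the main claudin of brain endothelium, was at 0.922, 0.678, 0.331 and 0.41 CPM in PDGFRb libraries, against 1889, 1890, 3726, 2492 and 3668 CPM in CD31 libraries (-12.17 ± 0.732, edgeR adjusted p = 1.8e-11). Cdh5, which encodes VE-cadherin of endothelial junctions, was at 8.66, 1.36, 3.81 and 0.234 CPM, against 395, 750, 405, 511 and 551 CPM (-7.20, and -8.16 without PDGFRb mouse 51435). The groups did not overlap for either junction gene, which the rule for the largest falls had asked of Cldn5.

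Transport across the blood-brain barrier was lower in the PDGFRb sort in 21 of 25 genes, all tested, and higher in 0 (1 with limma-voom), with a median log2 difference of -3.36. The summed level was 1471, 2186, 1784 and 2225 CPM in PDGFRb libraries, against 11235, 7127, 17567, 13659 and 14170 CPM in CD31 libraries. The CD31 sums were 23% to 56.8% of the mean of the non-tumor CD31 sort, lowest in mouse 51697. Slco1a4, an organic anion transporter, was at 0.151 to 2.61 CPM in PDGFRb libraries and at 189 to 678 CPM in CD31 libraries (-8.41, and -9.26 without PDGFRb mouse 51435). Mfsd2a, a lipid transporter, was at 0.11 to 1.36 CPM and 121 to 760 CPM in the same order (-9.59, and -10.31 without PDGFRb mouse 54957). Slc19a3, a thiamine transporter, had 1 count over the PDGFRb and 2012 over the CD31 libraries, a ratio of 1779 (95% exact counting interval 319 to 70307; fitted -10.20, and -11.85 without PDGFRb mouse 56195-56520, which held the count). The efflux pump gene Abcb1a showed a smaller gap, at 8.66, 33.2, 24 and 43.3 CPM in PDGFRb libraries, against 212, 201, 329, 237 and 328 CPM in CD31 libraries (-3.26 ± 0.662, edgeR adjusted p = 0.00084). Its level in PDGFRb libraries was above the 4.21 ± 3.93 CPM of the PDGFRb sort from non-tumor brain.

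Tight junction genes, many of which epithelial cells use as well, split. Of 16, all tested, 6 were lower and 1 was higher (0 with the replicate block) in the PDGFRb sort (median log2 difference -0.77). Jam2, a junctional adhesion molecule, was at 0.878 to 3.03 CPM in PDGFRb libraries and at 131 to 272 CPM in CD31 libraries (-6.60). Ocln, which encodes occludin, was at 16.5, 6.32, 18.3 and 44.4 CPM, against 148, 31.9, 217, 141 and 69.4 CPM, with 1 PDGFRb value above the lowest CD31 value. Its difference of -2.50 (edgeR adjusted p = 0.015) did not pass with the replicate block (adjusted p = 0.079) and was -3.24 without PDGFRb mouse 56195-56520.

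Tip cell and angiogenic genes, which mark sprouting vessels, were lower in the PDGFRb sort in 20 of 25 cases, all tested, and higher in 1 (median log2 difference -3.25, and -4.97 without PDGFRb mouse 51435). The 1 exception was Vegfa, the growth factor that endothelial cells sense. Plvap, the diaphragm protein of leaky vessels, was at 3.84, 1.28, 0 and 1.7 CPM in PDGFRb libraries, against 111, 279, 53.9, 598 and 241 CPM in CD31 libraries (-7.22, and -8.01 without PDGFRb mouse 51435). Apln, a tip cell peptide, was at 0.102 to 1.43 CPM and 195 to 491 CPM (-9.03, and -10.09 without PDGFRb mouse 54957), and its receptor Aplnr was at 0.376 to 7.43 CPM and 448 to 1329 CPM (-8.16, and -9.03 without PDGFRb mouse 51435). Both the ligand and the receptor were thus far higher in every CD31 library than in any PDGFRb library. Angpt2, a ligand of the TIE2 receptor, was at 107, 4.67, 3.09 and 11.4 CPM, against 269, 144, 550, 338 and 204 CPM (-3.25, and -5.55 without PDGFRb mouse 51435). Flt4, the receptor VEGFR3, was at 0.154, 3.39, 0.165 and 0.351 CPM, against 225, 267, 282, 303 and 291 CPM (-8.13, and -10.29 without PDGFRb mouse 54957).

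Signalling between endothelial and mural cells runs through PDGF and Notch, and the members split by the cell type that uses them. Of 7 PDGF signalling genes, all tested, 4 were higher in the PDGFRb sort and 2 lower. Pdgfra, a receptor of fibroblasts and glial precursors, was at 19, 15.9, 12.1 and 11.8 CPM in PDGFRb libraries and at no more than 0.716 CPM in CD31 libraries (6.34, and 8.09 without CD31 mouse 54957). The ligand Pdgfd had 1 count over the PDGFRb and 1906 over the CD31 libraries, a ratio of 1685 (95% exact counting interval 302 to 66605; fitted -10.14, and -11.75 without PDGFRb mouse 55169-70, which held the count). Of 13 Notch genes, all tested, 4 were higher and 6 lower. Notch3, the receptor of mural cells, was at 181, 8.81, 2.59 and 18.4 CPM in PDGFRb libraries and had 3 counts in all CD31 libraries, a ratio of 1509 (516 to 7318; fitted 10.15, with 7.75 without PDGFRb mouse 51435 and 11.12 without CD31 mouse 56195-56520). Its target Heyl was at 236, 10.6, 5.02 and 12.5 CPM and at no more than 1 CPM in the same order (8.30, with 5.48 without PDGFRb mouse 51435 and 11.48 without CD31 mouse 54957). The endothelial receptor Notch4 was at 8.05, 3.01, 0 and 1.52 CPM, against 68.9, 217, 55.9, 76.3 and 69.1 CPM (-4.95, and -6.02 without PDGFRb mouse 51435). The endothelial ligand Dll4 was at 0 to 2.99 CPM and 236 to 441 CPM (-8.50, and -10.25 without PDGFRb mouse 56195-56520).

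**Figure D3:**
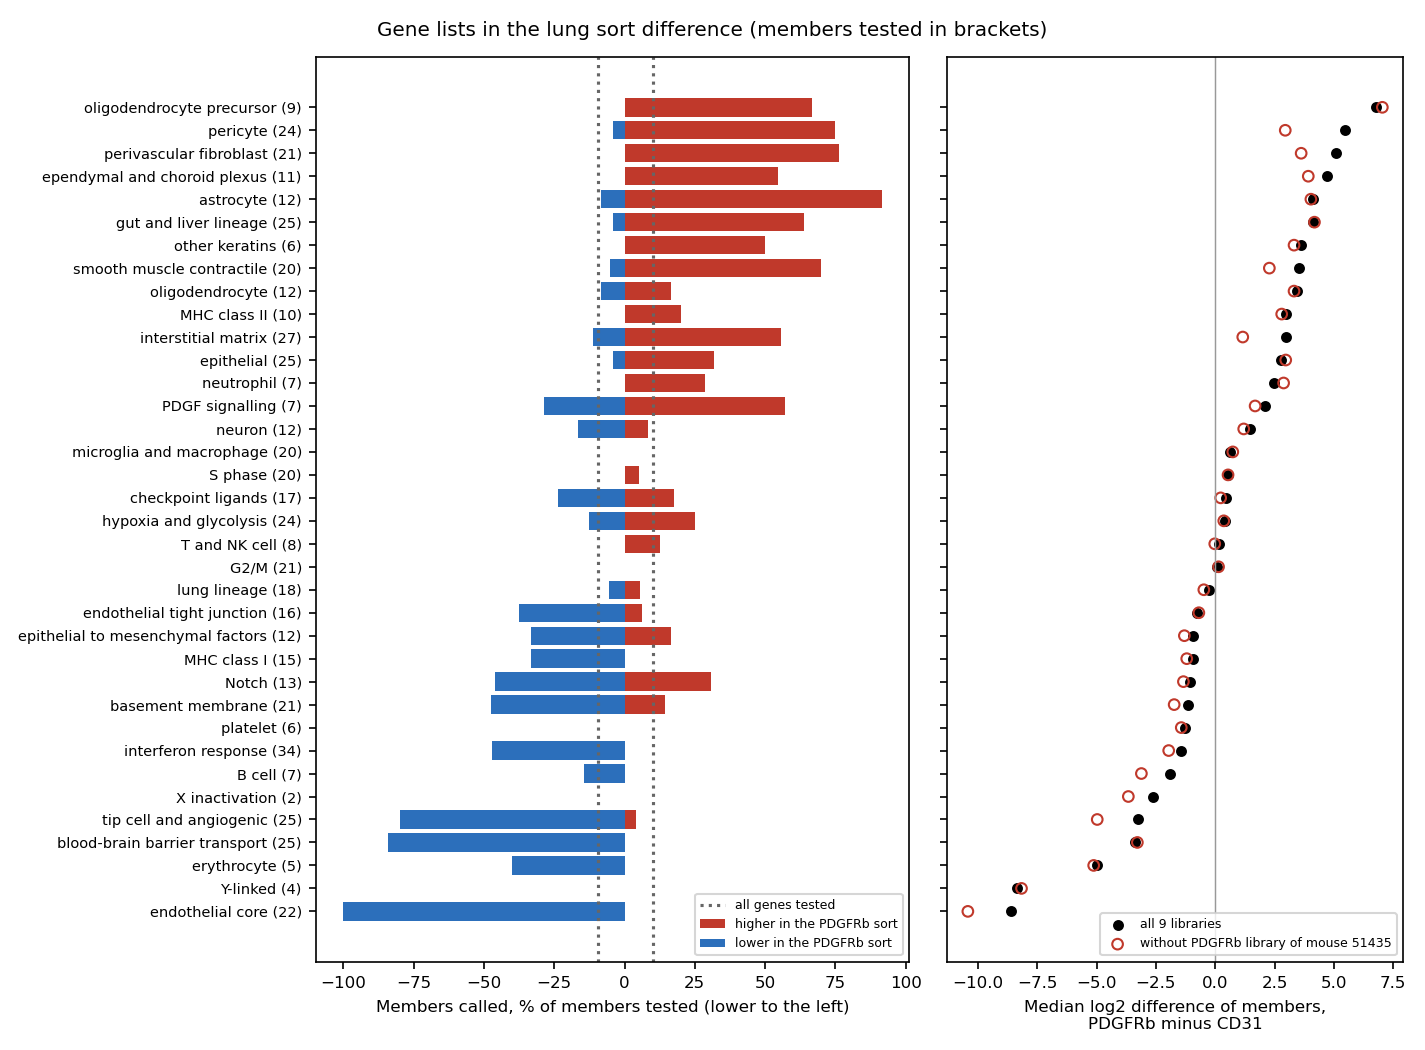
Share of each list's tested members called higher (right) or lower (left) in the PDGFRb sort, with dotted lines at the shares over all genes (10.2% and 9.36%), and the median log2 difference of the members with all 9 libraries (filled) and without PDGFRb mouse 51435 (open). Medians of pericyte genes move from 5.46 to 2.95 without that library, and those of gut and liver genes from 4.11 to 4.18.

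Epithelial genes summed higher in every PDGFRb library than in any CD31 library. Except in mouse 51435, their sum in a PDGFRb library was also above that of the pericyte list. Of 25 epithelial genes, all tested, 8 were higher and 1 lower (median log2 difference 2.78, or 2.72 with genes without counts at their bound), and with the replicate block 4 were higher. The summed level was 6806, 10454, 9163 and 11486 CPM in PDGFRb libraries, against 2762, 1863, 1087, 635 and 610 CPM in CD31 libraries. It was lowest among PDGFRb libraries and highest among CD31 libraries in mouse 51435, and the PDGFRb and CD31 sorts from non-tumor brain averaged 213 and 448 CPM. Krt18, the partner of Krt8 in keratin filaments, was at 2316, 3495, 2858 and 3271 CPM in PDGFRb libraries, against 871, 552, 195, 34.7 and 77.6 CPM in CD31 libraries. Its difference of 3.11 (edgeR adjusted p = 0.03) did not pass when PDGFRb mouse 54957 or 56195-56520 or CD31 mouse 54957, 55169-70 or 56195-56520 was left out (2.82 to 2.96, edgeR adjusted p = 0.06 to 0.07), and was 3.80 without CD31 mouse 51435. Krt19 was at 761, 1677, 1519 and 1530 CPM, against 364, 243, 102, 11.9 and 42.5 CPM (3.17, and 3.78 without CD31 mouse 51435). Keratins have near copies and pseudogenes, so their levels are uncertain to that extent.

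Cdh1 and Dsp of the epithelial list were also higher, but not with the replicate block. Cdh1, which encodes E-cadherin, was at 414, 614, 658 and 913 CPM in PDGFRb libraries, against 151, 29.1, 46.9, 5.6 and 3.48 CPM in CD31 libraries (3.78, edgeR adjusted p = 0.019, with 4.93 without CD31 mouse 51435 and an adjusted p of 0.09 with the replicate block). Dsp, which encodes desmoplakin of desmosomes, was at 48.4, 115, 94.7 and 138 CPM, against 8.79, 3.85, 5.58, 2.6 and 3.04 CPM (4.38, edgeR adjusted p = 0.0039, and 0.068 with the replicate block). In both, the sorts did not overlap. Of 11 other keratins 6 were tested and 3 were higher, and 1 with the replicate block.

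Genes of the gut and liver lineage were higher in the PDGFRb sort in 16 of 25 cases tested of 28, and lower in 1, with a median log2 difference of 4.11 (4.18 without PDGFRb mouse 51435). The summed level was 2404, 5322, 4451 and 7671 CPM in PDGFRb libraries, against 491, 456, 275, 97.2 and 200 CPM in CD31 libraries. The mean of the PDGFRb sort from non-tumor brain was 424 CPM. Alb, which encodes albumin, was at 383, 858, 936 and 3523 CPM in PDGFRb libraries, against 0.366, 29.3, 43.3, 9.22 and 61.6 CPM in CD31 libraries (5.63, and 4.52 without PDGFRb mouse 56195-56520). Mouse 51435 was lowest in both sorts, the reverse of the keratins in the CD31 sort. Apoa1, an apolipoprotein of liver and gut, was at 356, 1694, 762 and 756 CPM, against 56.9, 33, 15.5, 2.66 and 5.15 CPM (5.30, and 5.99 without CD31 mouse 51435). The trefoil peptide gene Tff2 of stomach mucus rose as well, at 19.6, 63.1, 60 and 234 CPM and no more than 2.28 CPM (7.0, with 5.87 without PDGFRb mouse 56195-56520 and 8.04 without CD31 mouse 51697).

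Fgb, a fibrinogen chain made in liver, was at 155, 79.7, 53.6 and 127 CPM in PDGFRb libraries and at no more than 3.58 CPM in CD31 libraries (6.77, and 8.43 without CD31 mouse 54957). Akr1c19, an aldo-keto reductase, was at 25.4, 135, 91.1 and 177 CPM and at no more than 8.87 CPM (5.05, and 5.87 without CD31 mouse 51697). Hnf4a, a transcription factor of liver and gut that was chosen after its values were seen, was at 163, 175, 232 and 262 CPM, against 39.9, 34.8, 21.8, 5.49 and 21.2 CPM (3.08 ± 0.583, edgeR adjusted p = 0.00058). These genes were detected in all 4 PDGFRb libraries, while Hnf4a averaged 0.0399 ± 0.0669 CPM in the PDGFRb sort from non-tumor brain (SD, n = 5). The exception was Gkn1, a stomach mucus gene, which had no counts in PDGFRb libraries and 1.29 to 13.7 CPM in CD31 libraries, at least 116-fold lower (edgeR adjusted p = 0.0015, and 0.067 with the replicate block; fitted -9.44, and -8.61 without CD31 mouse 56195-56520).

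Lung lineage genes did not follow. Of 20, 18 were tested, 1 was higher (0 with the replicate block) and 1 lower in the PDGFRb sort (median log2 difference -0.27). Over all genes tested, 10.2% were higher and 9.36% lower. The fall was that of Scgb3a1, a secretoglobin of airways, at 3.54, 0, 1.54 and 0.878 CPM in PDGFRb libraries, against 308, 188, 711, 470 and 773 CPM in CD31 libraries (-8.33, and -9.19 without PDGFRb mouse 51435). The CD31 sort from non-tumor brain held 19.1 CPM of Scgb3a1 on average. Spp1, Clu and S100a6, chosen after their values were seen, were also higher in the PDGFRb sort. Spp1, which encodes osteopontin, was at 15126, 14127, 13710 and 8910 CPM, against 3246, 909, 1249, 522 and 223 CPM (3.40, edgeR adjusted p = 0.012, and 4.16 without CD31 mouse 51435). Clu, which encodes clusterin, was at 13043, 15409, 14810 and 14431 CPM, against 1477, 1904, 2300, 957 and 557 CPM (3.33, edgeR adjusted p = 2.9e-05). S100a6, a calcium-binding protein, was at 2965, 6012, 3065 and 3311 CPM, against 1455, 943, 268, 124 and 218 CPM (2.67, edgeR adjusted p = 0.00041, and 3.31 without CD31 mouse 51435). All 3 varied less over the PDGFRb than over the CD31 libraries. In the authors' deposited FPKM values, which are scaled by gene length, S100a6 ranked 1 to 2, Spp1 1 to 5 and Clu 2 to 3 among all genes of the 4 PDGFRb libraries, and Krt8 ranked 27 to 91.

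The PDGFRb library of a mouse was next used as a reference for the epithelial RNA in its CD31 library, in the 4 mice with both sorts. The CD31 level over the PDGFRb level (the carry-over ratio) was taken over 6 epithelial genes at 50 CPM or more in every lung PDGFRb library and at 5 CPM or less on average in each non-tumor sort. These were Krt8, Krt19, Krt7 (keratins), Cdh1, Elf3 (an epithelial transcription factor) and Lad1 (ladinin, an anchoring filament protein). They were chosen by high PDGFRb levels, which are the denominator of the ratio. Epithelial genes that are low in the PDGFRb sort could thus not enter, which favors low ratios. The median ratio was 34.8% in mouse 51435, 8.86% in mouse 54957, 1.61% in mouse 55169-70 and 2.57% in mouse 56195-56520. Epithelial RNA in the CD31 sort thus differed widely among mice, and the reference genes differed within a mouse too. They ranged from 22.3% (Krt7) to 65% (Lad1) in mouse 51435, from 5.42% (Krt8) to 24.9% (Krt7) in mouse 54957, from 0.785% (Krt19) to 2.81% (Krt7) in mouse 55169-70 and from 0.0552% (Elf3) to 11% (Lad1) in mouse 56195-56520. The summed gut and liver genes gave 20.4%, 5.16%, 2.18% and 2.61% in the same 4 mice. They were no reference genes, but their list was chosen with earlier results of these data known. Single genes could depart from this, as the CD31 level of Alb in mouse 51435 was far below what either ratio would give.

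**Figure D4:**
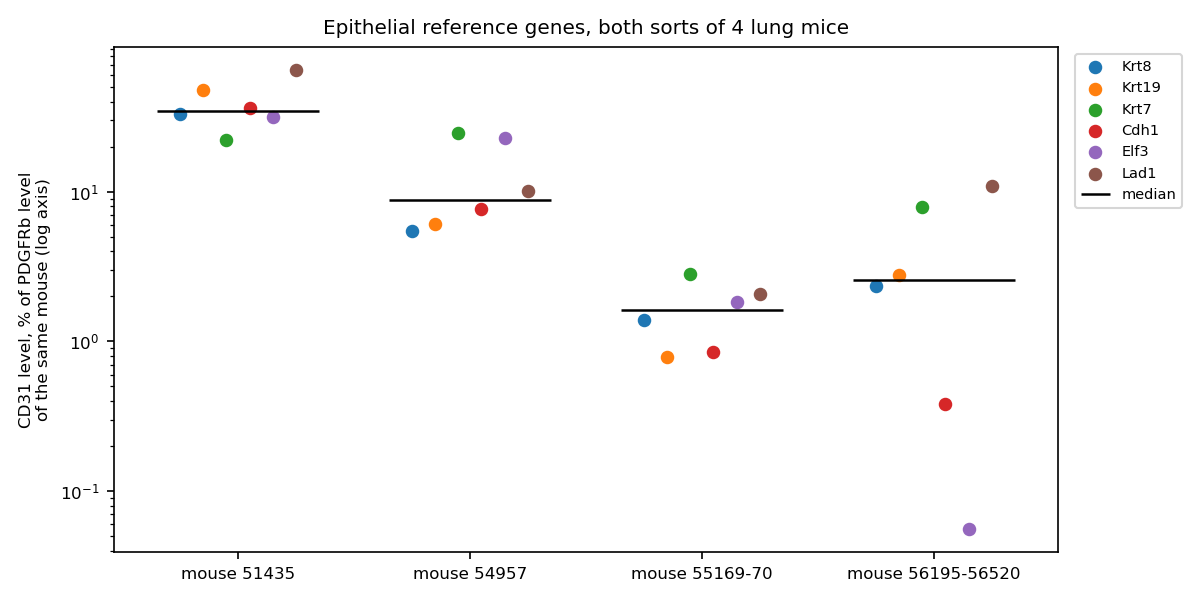
CD31 level as a percentage of the PDGFRb level of the same mouse (log axis) for the 6 epithelial reference genes in the 4 lung mice with both sorts; black lines are medians. The median is 34.8% in mouse 51435 and 1.61% to 8.86% in the other mice, and single genes spread most in mouse 56195-56520.

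Scaled by this ratio, the PDGFRb library of the same mouse gives the part of a CD31 level that such carry-over would make up. This share counts the whole PDGFRb level as carried over, although the PDGFRb sort also holds RNA of other cells, and it can exceed 100%. It also takes on the spread of the reference genes within a mouse. For endothelial genes the share was small, with a median over mice of 0.000949% for Cldn5 and 0.114% for Plvap, and at most 1.21% for Plvap in mouse 51435. This follows from their low PDGFRb levels and is no separate evidence on their CD31 levels. For Abcb1a the median was 0.617%. Spp1 and Vegfa were at the other end. Carry-over came to 162%, 100%, 42.4% and 103% of the CD31 level of Spp1 in mice 51435, 54957, 55169-70 and 56195-56520, and to 67.6%, 110%, 35.7% and 95.7% of that of Vegfa. Vegfa itself was at 32.9, 76.7, 112 and 104 CPM in PDGFRb libraries, against 17, 17.3, 6.15, 5.09 and 2.79 CPM in CD31 libraries (log2 difference 3.08, edgeR adjusted p = 0.0054).

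Cd276, which encodes the checkpoint molecule B7-H3, lay in between and varied by mouse. It was at 57.2, 58.2, 67.1 and 64.9 CPM in PDGFRb libraries, against 62.8, 71.4, 38.1, 47.4 and 1.12 CPM in CD31 libraries. The PDGFRb libraries were uniform, and CD31 mouse 56195-56520 was far below the other CD31 libraries. The sorts were not told apart by the test (0.49 ± 0.65, edgeR adjusted p = 0.66). The carry-over share was 31.7%, 13.5%, 2.29% and 149% of the CD31 level in the 4 mice with both sorts. In 3 of these mice the CD31 level was 110%, 65.4% and 70.6% of the PDGFRb level, above their ratios of 34.8%, 8.86% and 1.61%. It was also above their highest reference genes, at 65%, 24.9% and 2.81%. In mouse 56195-56520 the CD31 level was 1.72% of the PDGFRb level. That lay inside the wide reference gene range there, 0.0552% to 11% with a median of 2.57%, and so was not set apart from it.

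Of the other checkpoint genes, Vtcn1 and Entpd1 had the largest differences named by the rule. The checkpoint list had 17 of 19 members tested, of which 3 were higher in the PDGFRb sort and 4 lower. Vtcn1, which encodes B7-H4, had 410 counts over the PDGFRb and 3 over the CD31 libraries, a ratio of 155 (95% exact counting interval 52.5 to 753; fitted 6.93, and 9.70 without CD31 mouse 54957, which held all 3). Entpd1, the ATP-cleaving ectoenzyme CD39 of endothelium, was at 5.79, 0.452, 4.25 and 4.98 CPM in PDGFRb libraries, against 177, 316, 215, 329 and 200 CPM in CD31 libraries (-5.99).

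Some MHC class I and interferon response genes were lower in the PDGFRb sort. Of 15 MHC class I genes, all tested, 5 were lower and 0 higher (median log2 difference -0.95), and with limma-voom 2 were lower and 0 higher. H2-D1 was at 1236, 576, 814 and 715 CPM in PDGFRb libraries, against 2874, 2058, 2045, 3981 and 2001 CPM in CD31 libraries (-1.63 ± 0.292, edgeR adjusted p = 0.0002), and H2-K1 at 372, 187, 292 and 133 CPM, against 1080, 839, 550, 1391 and 666 CPM (-1.88, and not called with limma-voom at -1.91 and an adjusted p of 0.13). These genes have near copies, and their levels are uncertain to that extent. Of 34 interferon response genes, all tested, 16 were lower and 0 higher, against 9 and 1 with limma-voom (median -1.45). Ifi44 was at 0.993 to 3.75 CPM in PDGFRb libraries and at 22.1 to 58.4 CPM in CD31 libraries (-3.91), and Trim30a at 2.25 to 9.94 CPM and 38.7 to 60.1 CPM (-3.05). Interferon genes summed to 2538, 493, 615 and 485 CPM in PDGFRb libraries, with mouse 51435 inside the CD31 range of 2269 to 3949 CPM.

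MHC class II genes, which mark antigen-presenting cells, were uneven between mice. Of 11, 10 were tested, 2 were higher in the PDGFRb sort and 0 lower. With the replicate block 0 were called, with DESeq2 6 were higher, and without PDGFRb mouse 51435 1 was. The list summed to 1120, 105, 1396 and 163 CPM in PDGFRb libraries, against 157, 62.7, 154, 42.6 and 4.97 CPM in CD31 libraries. PDGFRb mice 51435 and 55169-70 stood apart from the rest. Cd74, the invariant chain, was at 653, 49.5, 657 and 76.3 CPM, against 81.8, 37.6, 82.3, 18 and 0 CPM, and did not pass the test (3.03, edgeR adjusted p = 0.059). H2-Eb1 was at 114, 4.89, 142 and 11.7 CPM, against 16.8, 1.1, 8.37, 0.848 and 0 CPM, and its call (3.64, edgeR adjusted p = 0.045) was lost with the replicate block (adjusted p = 0.18) and without any of PDGFRb mice 51435 and 55169-70 and CD31 mice 51697, 54957, 55169-70 and 56195-56520 (3.0 to 3.85 on the log2 scale, edgeR adjusted p = 0.064 to 0.13, and 4.72 without CD31 mouse 51435). The microglia and macrophage list, 20 genes all tested, had 0 calls in either direction with edgeR, DESeq2 or limma-voom and 0 at an unadjusted edgeR p under 0.05. It summed to 648, 259, 912 and 371 CPM in PDGFRb libraries, against 194, 231, 879, 244 and 202 CPM in CD31 libraries, highest in PDGFRb mouse 55169-70 and CD31 mouse 54957, the libraries with the most Ptprc. The part of such cells in the class II levels was not tested.

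Astrocyte and oligodendrocyte precursor genes were mostly higher in the PDGFRb sort. Of 12 astrocyte genes, all tested, 11 were higher and 1 lower (median log2 difference 4.13), yet the list summed to 314 to 530 CPM in PDGFRb libraries and 306 to 628 CPM in CD31 libraries, which overlap. Gfap, the astrocyte filament protein, was at 106, 16.2, 36.5 and 20.7 CPM in PDGFRb libraries and at 0, 0, 1.36, 0 and 0 CPM in CD31 libraries (7.38, with 6.51 without PDGFRb mouse 51435 and 12.63 without CD31 mouse 54957). Slc1a3, a glutamate transporter, was at 44.8, 3.09, 6.34 and 7.67 CPM and at no more than 0.644 CPM (6.09, with 4.65 and 6.90 without the same libraries). Of 10 oligodendrocyte precursor genes, 9 were tested, 6 were higher and 0 lower (median 6.77, or 6.29 with genes without counts at their bound). Sox10, a glial transcription factor, had 350 counts over the PDGFRb and 1 over the CD31 libraries (ratio 396, 95% exact counting interval 70.6 to 15678; fitted 7.95, and 9.47 without CD31 mouse 54957, which held it). Olig1 was at 2 to 9.56 CPM and without counts in CD31 libraries, at least 124-fold higher, and the proteoglycan gene Cspg5 had a ratio of 136 (37.2 to 1127; fitted 6.81, and 9.06 without the same library). Of 12 ependymal and choroid plexus genes, 11 were tested, 6 were higher and 0 lower (median 4.69, or 3.24 with genes without counts at their bound), and with the replicate block 2 were higher. Oligodendrocyte genes, 12 of 12 tested, had 2 higher (1 without PDGFRb mouse 51435) and 1 lower, and summed to 211, 161, 135 and 249 CPM in PDGFRb libraries, against 290, 205, 283, 243 and 538 CPM in CD31 libraries, which overlap. With 10.2% higher and 9.36% lower over all genes tested, so few calls say little about the oligodendrocyte list. The part of these cells in the sort difference was not tested.

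Blood cell genes were few. Neutrophil genes had 7 of 10 members tested, of which 2 were higher in the PDGFRb sort and 0 lower, and 0 were called with the replicate block. They summed to 3.84, 2.64, 120 and 0.703 CPM in PDGFRb libraries, against 1.92 to 7.93 CPM in CD31 libraries, so that 1 PDGFRb library, mouse 55169-70, stood out. Retnlg, a neutrophil granule gene, was at 36.7 CPM in that library and without counts in the CD31 libraries, and its call was lost without it (4.80 on the log2 scale, edgeR adjusted p = 0.2) and with the replicate block (adjusted p = 0.13). Erythrocyte genes had 5 of 8 members tested, with 2 lower (0 with the replicate block), and summed to 3.1 to 17.7 CPM in PDGFRb and 15.4 to 1062 CPM in CD31 libraries. Platelet genes, 6 of 8 tested, had 0 calls with edgeR, DESeq2 or limma-voom and 0 at an unadjusted edgeR p under 0.05, T and NK cell genes 1 higher of 8 tested of 14, and B cell genes 1 lower of 7 tested of 10 (both 0 with the replicate block and without PDGFRb mouse 51435). Neuronal genes, 12 of 14 tested, had 1 higher and 2 lower (1 lower with the replicate block). Over all genes tested, 10.2% were higher and 9.36% lower. The few calls in the T and NK cell, B cell and neuronal lists thus say little about those cells.

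Xist, the RNA of X inactivation that female cells make, was chosen after its values were seen and differed between the sorts of a mouse. It was at 187, 18.5, 33.7 and 17.2 CPM in PDGFRb libraries, against 331, 7.53, 510, 377 and 572 CPM in CD31 libraries. In the 4 mice with both sorts the PDGFRb level was 56.6%, 3.63%, 8.94% and 3% of the CD31 level of the same mouse. The highest share was in mouse 51435, the PDGFRb library with the highest pericyte sum. Over all 9 libraries the difference did not pass the test (-2.48, edgeR adjusted p = 0.24) and passed with the replicate block (-3.66, edgeR adjusted p = 0.018). The 4 Y-linked genes, all tested, had 0 calls with edgeR, 3 with DESeq2 and 0 with limma-voom, and 4 at an unadjusted edgeR p under 0.05. They summed to 0, 0, 0 and 0.0586 CPM in PDGFRb libraries, against 0, 99.1, 0, 0.0566 and 0 CPM in CD31 libraries, so that nearly all Y-linked counts were in CD31 mouse 51697, the library with the lowest Xist.

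G2/M genes did not separate the sorts, while S phase sums were mostly higher in PDGFRb libraries. Of 21 G2/M genes, all tested, edgeR and DESeq2 called 0 and limma-voom 1, with 1 at an unadjusted edgeR p under 0.05 (median log2 difference 0.06), and of 20 S phase genes 1 was higher and 0 lower (0 called with the replicate block, 3 higher with limma-voom, 2 with DESeq2, and 4 at an unadjusted edgeR p under 0.05). The share of S phase genes called higher was below the 10.2% over all genes tested. The S phase list summed to 1526, 1647, 1444 and 1671 CPM in PDGFRb libraries, against 1449, 748, 872, 974 and 770 CPM in CD31 libraries, where 3 PDGFRb libraries lay above all CD31 libraries. The G2/M list summed to 828, 1109, 871 and 904 CPM in PDGFRb libraries, against 1088, 681, 885, 401 and 821 CPM in CD31 libraries, where the non-tumor sorts averaged 380 and 29.6 CPM. Mki67, the marker of cycling cells, was at 11.4, 20.2, 4.74 and 11.7 CPM, against 18, 4.32, 19.1, 7.52 and 16.3 CPM (-0.12 ± 0.947, edgeR adjusted p = 0.96). The ranges overlapped fully.

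Hypoxia and glycolysis genes were higher in 6 and lower in 3 of 24 cases, all tested (6 and 1 with the replicate block). The glucose transporter Slc2a1, which brain endothelium uses at high levels, was at 68.1, 85.8, 73.4 and 78.3 CPM in PDGFRb libraries, against 2651, 1362, 3197, 2670 and 3083 CPM in CD31 libraries (-5.09 ± 0.487, edgeR adjusted p = 2.5e-08). Of 21 basement membrane genes, all tested, 10 were lower and 3 higher (median -1.15). Nid2, which encodes nidogen, was at 75.8, 10.1, 5.79 and 30.3 CPM, against 498, 316, 638, 508 and 464 CPM (-3.99, and -4.97 without PDGFRb mouse 51435). Lama2, a laminin chain of mural cells and fibroblasts, went the other way, at 111, 5.95, 4.96 and 5.86 CPM and no more than 0.452 CPM (7.77, with 5.26 without PDGFRb mouse 51435 and 9.11 without CD31 mouse 55169-70). Of 12 factors of epithelial to mesenchymal transition, all tested, 4 were lower and 2 higher, and 2 and 1 with the replicate block. Tgfbr2, a TGF-β receptor, was at 57 to 105 CPM in PDGFRb and 308 to 490 CPM in CD31 libraries (-2.39), and the repressor Zeb2 at 7.03 to 22.7 CPM and 0 to 3.28 CPM (3.34, and 4.01 without CD31 mouse 55169-70).

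The sort difference of lung BrM was then set against that of non-tumor brain. Mural genes of the PDGFRb sort and sprouting genes of the CD31 sort had a lower difference in lung BrM, and several genes that are high in the CD31 sort from non-tumor brain had a higher one. Of 18548 genes, 699 (3.77%) had a higher and 1177 (6.35%) a lower sort difference in lung BrM than in non-tumor brain (edgeR's test of the interaction), and with the replicate block 823 were called in all, without both libraries of mouse 54135 1381, and with that mouse placed by its cell type label 330. The median over all genes was -0.04, and -0.19 with RLE and -0.16 with upper-quartile scaling. Pericyte genes had 0 higher and 10 lower of 24, smooth muscle genes 0 and 7 of 20, perivascular fibroblast genes 0 and 4 of 21, tip cell and angiogenic genes 1 and 14 of 25, basement membrane genes 0 and 12 of 21, and G2/M genes 0 and 15 of 21. On the other side, blood-brain barrier transport had 8 higher and 4 lower of 25, interferon response 13 and 1 of 34, and MHC class I genes 8 and 0 of 15.

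The genes whose sort difference shifted most upwards had high levels in the CD31 sort from non-tumor brain. Sgpp2, a phosphatase of sphingosine-1-phosphate, averaged 109 ± 30.3 CPM in the PDGFRb and 11.2 ± 7.84 CPM in the CD31 sort of lung BrM (SD, n = 4 and 5), against 1.6 ± 2.62 and 422 ± 25.1 CPM in the PDGFRb and CD31 sorts from non-tumor brain (n = 5 each; interaction 11.30 ± 1.43 on the log2 scale, edgeR adjusted p = 5.1e-06). Grb7, a signalling adaptor, averaged 81.5 ± 38 and 23.8 ± 13.1 CPM in lung BrM, against 0.0898 ± 0.173 and 46.1 ± 12.6 CPM (10.56). The sort difference within lung BrM was 3.28 for Sgpp2 (edgeR adjusted p = 0.012, and 0.063 with the replicate block) and 1.78 for Grb7, which did not pass (edgeR adjusted p = 0.12). Ddc, a decarboxylase of dopamine synthesis, had an interaction of 9.90, Pllp, a membrane protein of myelin, one of 9.22 (8.59 without PDGFRb mouse 56195-56520), and the guidance cue Sema3c one of 9.15. Their CD31 means in lung BrM were 16.5, 32.7 and 16.5 CPM, against 240, 463 and 433 CPM in non-tumor brain. Abcb1a also shifted upwards, by 4.88 (edgeR adjusted p = 0.00028), with CD31 means of 261 ± 62.5 CPM in lung BrM and 1195 ± 75.9 CPM in non-tumor brain.

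The largest downward shifts were in genes with higher CD31 means in lung BrM than in non-tumor brain. Tgfbi, a matrix protein induced by TGF-β, averaged 36.7 ± 36.9 CPM in the PDGFRb and 53.1 ± 15.2 CPM in the CD31 sort of lung BrM, against 110 ± 44.4 and 0.0812 ± 0.0949 CPM in non-tumor brain (interaction -10.84, and -11.68 without PDGFRb mouse 51435). Chst1, a sulfotransferase, averaged 1.56 ± 1.54 and 133 ± 70.9 CPM, against 27.9 ± 12.6 and 1.39 ± 0.657 CPM (-10.72, and -11.60). Trp53i11 averaged 8.63 ± 8.5 and 1447 ± 668 CPM, against 271 ± 83.2 and 35.3 ± 7.3 CPM (-10.33, and -11.25). For all 3 genes the PDGFRb mean was lower and the CD31 mean higher in lung BrM than in non-tumor brain. Gng2, a G protein subunit, had an interaction of -9.22 (-11.53 without PDGFRb mouse 51435) and Abcc9 one of -9.02 (-12.02 without PDGFRb mouse 51435 and -8.16 without CD31 mouse 51697). Kcnj8 followed at -8.93 (-12.74 and -8.17 without the same libraries), Pdgfrb at -5.43 (-7.34 and -4.64), and Angpt2 at -4.94 (-7.23 without PDGFRb mouse 51435).

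Checkpoint, junction and permeability genes also shifted. Cd276 had an interaction of -8.12 (edgeR adjusted p = 7.3e-05), from 7.19 ± 3.25 CPM in the PDGFRb sort and 0.0124 ± 0.0278 CPM in the CD31 sort from non-tumor brain. Cldn5 and Pecam1 shifted by -4.24 and -4.06 (Pecam1 by -4.92 without PDGFRb mouse 55169-70), with PDGFRb means of 0.585 ± 0.269 and 0.19 ± 0.172 CPM in lung BrM, against 10.7 ± 5.67 and 4.9 ± 4.21 CPM in the PDGFRb sort from non-tumor brain. Plvap shifted by -3.95 (edgeR adjusted p = 0.016, and -4.74 without PDGFRb mouse 51435), with CD31 means of 257 ± 212 CPM in lung BrM and 13.4 CPM in non-tumor brain. Krt8 did not pass (0.51, edgeR adjusted p = 0.91).

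**Figure D5:**
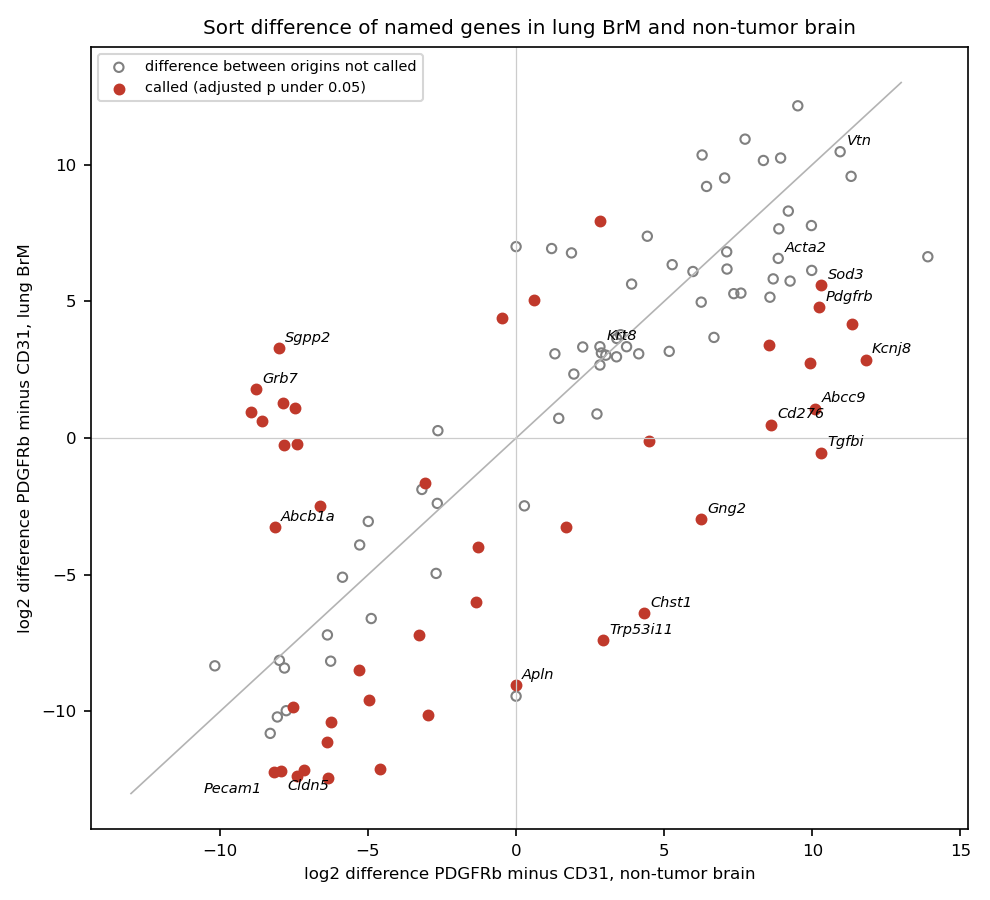
Log2 difference between the PDGFRb and CD31 sorts in lung BrM (y axis) and in non-tumor brain (x axis) for the named genes; filled points passed the test of the difference between origins, and the diagonal marks equal differences. Sgpp2 and Grb7 lie far above the diagonal (11.30 and 10.56) and Tgfbi, Chst1 and Trp53i11 far below it (-10.84, -10.72 and -10.33).

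Against breast BrM, fewer genes differed in their sort difference. This comparison uses the same lung libraries as that with non-tumor brain, so the values of the comparisons are not independent. In all, 160 genes (0.863%) had a higher and 201 (1.08%) a lower sort difference in lung BrM, with a median of 0.20. The count of 361 was 1043 without PDGFRb mouse 51435, 170, 148 and 171 without PDGFRb mice 54957, 55169-70 and 56195-56520, 25 with the replicate block and 12 without the labels of 2 mouse numbers. The share of higher genes among those called was 44.3%, and 36.9% with RLE, 28.4% with upper-quartile scaling and 71.9% with limma-voom.

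The 5 upward shifts named by the rule were in genes of mixed roles. Gchfr, a regulator of tetrahydrobiopterin synthesis, averaged 56.7 ± 15.8 CPM in the PDGFRb and 34.5 ± 25.4 CPM in the CD31 sort of lung BrM, against 0.049 ± 0.0673 and 24.5 ± 14.5 CPM in breast BrM (SD, n = 4 and 5 each; interaction 9.46 ± 1.15, edgeR adjusted p = 5e-05). Prom1, which encodes the stem cell surface marker CD133, averaged 68.9 ± 36.8 and 78.9 ± 40.8 CPM, against 0.601 ± 0.746 and 96.6 ± 60.1 CPM (7.05). For both genes the PDGFRb sort of breast BrM was near 0 and the other 3 groups were not. Clic6, a chloride channel protein, had an interaction of 8.0 (8.61 without CD31 mouse 51435), Hhex, a homeobox transcription factor, one of 5.97 (edgeR adjusted p = 0.0027), and Depp1 one of 5.97 as well, which was lost without PDGFRb mouse 56195-56520 (3.43, edgeR adjusted p = 0.11). Hhex averaged 161 ± 61.8 and 75 ± 16.9 CPM in the PDGFRb and CD31 sorts of lung BrM, against 1.84 ± 1.43 and 55.9 ± 26.6 CPM in breast BrM.

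On the lower side were collagen chains and pericyte genes. Col5a1 averaged 90.4 ± 99 and 7.09 ± 12.1 CPM in the PDGFRb and CD31 sorts of lung BrM, against 846 ± 669 and 0.643 ± 0.365 CPM in breast BrM (-6.68, edgeR adjusted p = 0.022, lost without PDGFRb mice 54957, 55169-70 or 56195-56520 or CD31 mouse 51697, at -6.56, -6.42, -6.61 and -4.72, and -7.82 without PDGFRb mouse 51435). Pdgfrb averaged 145 ± 214 and 5.24 ± 5.88 CPM, against 826 ± 447 and 0.299 ± 0.345 CPM (-6.60, edgeR adjusted p = 0.025, lost without the same 3 PDGFRb libraries at -6.36, -6.27 and -6.45, with -8.51 without PDGFRb mouse 51435 and -5.80 without CD31 mouse 51697). The mean of Pdgfrb was thus several-fold lower in the PDGFRb sort of lung BrM than in that of breast BrM, with lung mouse 51435 the closest. Kcnj8 had an interaction of -6.55 (-10.36 without PDGFRb mouse 51435 and -5.78 without CD31 mouse 51697), and Col6a1 one of -6.10 (-4.26 without CD31 mouse 51435, lost without PDGFRb mouse 55169-70 at an edgeR adjusted p of 0.052). Zap70, a kinase of T cells and neither a collagen nor a pericyte gene, had one of -5.80 (-6.48 without PDGFRb mouse 54957). Within lung BrM, Zap70 was far higher in the CD31 sort (log2 difference -10.39, edgeR adjusted p = 1.1e-07).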

How the data were processed

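RNA-seq libraries were made from sorted cells with the SMART-Seq HT kit and Nextera XT, per the labels' protocols. The kit marks no strand, and no molecular identifiers are described, so reads of a gene and its antisense partner cannot be told apart, and counting intervals and floors cover counting error only. The authors deposited RSEM expected counts per gene, and FPKM values for 18665 genes, which served here only for ranks within a library. The genome build mm10 and the tools limma 3.50.3, edgeR 3.36.0, RSEM 1.3.3 and STAR 2.7.9a stand in the submitters' processing notes, and the annotation release is not given in the sources used here. The table held 53647 gene IDs, of which 52093 had a symbol in the files, and rows without one took 0.182% to 1.57% of the counts. No per-sample column lacked a sample (0).

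Expected counts, of which 5.25% were not whole, were rounded. All 28 libraries in 6 groups entered 1 fit with edgeR 4.0.16 (R 4.3.3) with TMM scaling, filterByExpr, the robust quasi-likelihood test and Benjamini-Hochberg adjustment over all genes tested, called under 0.05. Contrasts were PDGFRb minus CD31 in lung BrM, and that difference minus the same in non-tumor brain or breast BrM. The SE of an edgeR log2 difference was derived from the test, as the size of the difference over the square root of its F value. It is approximate, most of all where a group is near the floor. DESeq2 1.42.0, limma-voom (limma 3.58.1), other scalings and filters, the 9 lung libraries alone, date, left-out libraries and a replicate block were alternatives. The steps were tested on simulated data. P-values of the main fit rest on a spread between libraries that was pooled over all 6 groups, with the sorts of a mouse taken as independent. They do not measure the spread between the lung mice alone. Libraries of 1 group differed by far more than sampling noise (lowest chi-square per degree of freedom 45.8).

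Groups came from the titles. The libraries of non-tumor mouse 54135 carry titles and cell type labels that name opposite sorts. The main fit did not pair the libraries of both sorts that share a mouse label. They were treated as paired only in the replicate block and in the ratios within a mouse. Of the 4 shared labels, 2 name 2 mouse numbers each, and the sources used here do not say whether these are pools. Correlations of the deviations of paired libraries from their group means were -0.07 to -0.03, and 0 of 4 correlated best with their own mouse. Named genes were the gate and set genes, the 10 largest rises and falls of the sort difference without overlap, the 5 largest of each difference between origins (mean log2 CPM of at least 3), and up to 4 called members per list. Some genes are not reported here, and the rule then took the next. Others are said to be chosen after their values were seen. Of the genes in 36 lists, 2 had no match. Members and lists were chosen with earlier results of these data known. Folds against a group without counts are bounds against 3 counts over the group.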

Additional observations from a re-analysis of the deposited data

Results flagged for a closer look

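Single libraries stood apart within their group for several genes. On the log2(CPM + 1) scale the gap of the highest or lowest library to its nearest neighbour, as a share of the group's range (the gap ratio), was compared with Dixon's critical value. This was done for 108 genes in 2 groups, 216 cases in all, of which 39 passed. Chance gives about 1 in 20 groups, and genes of 1 library are not independent of each other. Causes were not tested.

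Among PDGFRb libraries, mouse 51435 was highest for mural and matrix genes, with gap ratios of 0.939 for Pdgfrb, 0.856 for Myl9, 0.948 for Lama2, 0.910 for Col5a1 and 0.883 for Casq2, and lowest for Krt19 at 0.875. Mouse 54957 was highest for Prnd (0.890), S100a6 (0.844) and Flt4 (0.882) and lowest for Entpd1 (0.833). Mouse 55169-70 was highest for Itgam (1.0), Pdgfd (1.0) and Retnlg (0.877), and mouse 56195-56520 for Slc19a3 (1.0) and Sgpp2 (0.835). A ratio of 1.0 means that the other libraries had equal values, here no counts.

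Among CD31 libraries, mouse 54957 was highest for genes of several lists, with gap ratios of 1.0 for Itgam, Myh11, Gfap, Sox10, Vtcn1 and Cspg5, 0.722 for Epcam, 0.746 for Atp13a5, 0.760 for Apln, 0.891 for Heyl, 0.801 for Pdgfra and 0.731 for Chst1, and lowest for Depp1 at 0.763. Mouse 56195-56520 was highest for Tagln (0.867) and Lum (0.943) and lowest for Cd276 (0.825), Myl9 (0.772) and Ackr1 (0.834). Mouse 51697 was highest for Loxl1 (1.0) and Notch4 (0.772) and lowest for Slc2a1 (0.781) and Xist (0.870). Mouse 55169-70 was highest for Lama2 (0.798), and mouse 51435 lowest for Hhex (0.735).

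Differences between origins that passed edgeR's test of the interaction were the following, in log2 units. Against non-tumor brain the sort difference of lung BrM was higher for Sgpp2 (11.30), Grb7 (10.56), Ddc (9.90), Pllp (9.22), Sema3c (9.15) and Abcb1a (4.88). It was lower for Tgfbi (-10.84), Chst1 (-10.72), Trp53i11 (-10.33), Gng2 (-9.22), Abcc9 (-9.02), Kcnj8 (-8.93), Cd276 (-8.12), Pdgfrb (-5.43), Angpt2 (-4.94), Cldn5 (-4.24), Pecam1 (-4.06) and Plvap (-3.95). Against breast BrM it was higher for Gchfr (9.46), Clic6 (8.0), Prom1 (7.05), Hhex (5.97) and Depp1 (5.97), and lower for Col5a1 (-6.68), Pdgfrb (-6.60), Kcnj8 (-6.55), Col6a1 (-6.10) and Zap70 (-5.80).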

How the results depend on the processing

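Counts of called genes moved with the test, the libraries and the replicate block. The 1899 genes higher in the PDGFRb sort were 2939 with limma-voom, 1053 with the lung libraries only, 915 with mouse 54135 put by cell type label, 759 with the replicate block, 384 with that block in the 4 lung mice with both sorts, and 483 without the labels of 2 mouse numbers. The 1737 lower genes were 1115, 1004 and 696 under the last 3 settings. The 1876 genes that differed from non-tumor brain were 330 with mouse 54135 by its label, 823 with the replicate block and 710 without the labels of 2 mouse numbers. The 361 that differed from breast BrM were 1240 with DESeq2, 901 with limma-voom, 19 with mouse 54135 by its label, 238 with no filter, 25 with the replicate block, 637 with upper-quartile scaling and 12 without the labels of 2 mouse numbers. Leaving out 1 lung library gave 1343 to 1981, 1322 to 1762, 1445 to 2302 and 148 to 1043 in the same order. The share of higher genes, 52.2% in lung BrM, was 62.1% with limma-voom, 40.5% with the replicate block, 27.7% with that block in 4 mice, 37% with the lung libraries only and 41% without the lung labels of 2 mouse numbers. The carry-over ratios moved by less than their spread under each alternative (35.3% to 36.5%, 5.5% to 8.67%, 1.23% to 1.47% and 2.37% to 2.57%).

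Of 108 named genes, 90 were called. Over all alternatives, 2308 of 2477 values kept direction and call, 137 lost the call, 11 gained it and 21 changed sign. Mouse 54135 by its label lost 20 calls, the block in 4 mice 33 and the setting without labels of 2 mouse numbers 22. The replicate block lost 8 calls (Kcnj8, Cdh1, Dsp, Gkn1, Retnlg, H2-Eb1, Ocln and Sgpp2), gained Xist, and changed no other call.

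Signs changed in genes with small or uneven differences. Itgam was -3.74 with date as a covariate, -7.21 without the labels of 2 mouse numbers and -6.50 to 6.78 with 1 library left out. Abcc9 was -0.11 with limma-voom, -0.03 with the block in 4 mice and -1.93 to 1.93 with 1 library left out. The same range was -0.94 to 3.63 for Kcnj8, -0.57 to 0.14 for Mki67, -0.49 to 0.09 for Prom1 and -2.77 to 0.12 for Depp1. Without the labels of 2 mouse numbers, Ptprc was -0.43, Epcam -1.14, Cd276 -0.13 and Mki67 0.08. The causes were not tested. Genes near 3 counts, 0.154 to 0.235 CPM, are limited by depth.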
